A study of Mus musculus with 12 samples.

Results

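Klf4, Esrrb and Tbx3 encode transcription factors of naive pluripotency, and the histone peaks at these genes were followed across every library of the series. Members were all peaks that overlapped a window around each gene on GRCm39: 4:55455000-55545000 for Klf4 with its distal enhancers, 12:86390000-86580000 for Esrrb, and 5:119740000-119835000 for Tbx3 with its upstream enhancers. The windows held 158 of 332592 peaks, counting chromosomes 1 to 19, X and Y. Of these, 45 lay at Klf4, 63 at Esrrb and 50 at Tbx3. The windows were set by gene and not by a cut-off on a measured value, though earlier results of these data were known.

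All libraries came from E14TG2a mouse embryonic stem cells kept in serum and LIF plus 2 inhibitors, PD0325901 against MEK and CHIR99021 against GSK3. One genotype was wild type (WT). The other, Alkbh5 del-cIDR, carried a deletion of the disordered C-terminal stretch (cIDR) of ALKBH5, an RNA demethylase that removes N6-methyladenosine. CUT&Tag for H3K4me3 and H3K27ac and CUT&RUN for H3K9me3, methods that release DNA where an antibody is bound to chromatin, each gave 2 libraries per genotype, which made 12. Whether replicates were separate cultures, and whether del-cIDR is 1 clone, is not in the labels. A p-value therefore measures library-to-library spread, and that spread may be technical.

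Naive pluripotency is the state of the early epiblast, which embryonic stem cells keep under LIF and inhibitors of MEK and GSK3. Klf4 is a zinc-finger factor downstream of LIF and STAT3. Esrrb is an orphan nuclear receptor that is de-repressed when GSK3 is inhibited, and Tbx3 is a T-box factor under PI3K and LIF signals. H3K4me3 marks active and poised promoters, H3K27ac marks active promoters and enhancers, and H3K9me3 marks heterochromatin. Enhancers far from each gene, bound by OCT4, SOX2 and NANOG, are known to drive these genes in stem cells.

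The promoter sequences below show how unlike the starts of 2 of the genes are in CpG content. RefSeq promoters (GRCm38.p6, 300 bases each) were at hand for Klf4 and Esrrb, 2 of the 3 members, and Esrrb had 2 entries. Capitals mark GGGCGG or its reverse complement, the GC box that SP and KLF factors bind. Klf4 lies at chr4:55532426-55532725 on the minus strand. The Esrrb entries lie at chr12:86360867-86361166 and chr12:86421394-86421693, both on the plus strand. These positions belong to GRCm38.p6 and cannot be set against the peak coordinates, which are GRCm39.
Klf4: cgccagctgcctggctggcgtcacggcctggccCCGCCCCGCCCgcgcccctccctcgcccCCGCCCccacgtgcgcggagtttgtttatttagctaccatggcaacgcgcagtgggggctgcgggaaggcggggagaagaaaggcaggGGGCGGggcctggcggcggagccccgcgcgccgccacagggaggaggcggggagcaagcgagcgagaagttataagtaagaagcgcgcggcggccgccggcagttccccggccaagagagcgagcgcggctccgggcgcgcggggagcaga
Esrrb entry 1: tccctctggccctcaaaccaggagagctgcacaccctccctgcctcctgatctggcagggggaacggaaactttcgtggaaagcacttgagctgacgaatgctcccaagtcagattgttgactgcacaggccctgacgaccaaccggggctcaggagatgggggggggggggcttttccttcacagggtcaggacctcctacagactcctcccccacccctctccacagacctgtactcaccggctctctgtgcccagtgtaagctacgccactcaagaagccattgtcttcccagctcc
Esrrb entry 2: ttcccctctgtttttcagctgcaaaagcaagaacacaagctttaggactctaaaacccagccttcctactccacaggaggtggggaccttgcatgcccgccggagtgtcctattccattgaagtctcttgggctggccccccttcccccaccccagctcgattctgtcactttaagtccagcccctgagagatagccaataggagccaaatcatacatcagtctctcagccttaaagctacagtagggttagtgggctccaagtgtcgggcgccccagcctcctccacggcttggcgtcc
The Klf4 promoter held 40 CpG dinucleotides, an observed over expected ratio of 0.974, which lay above 92.6% of the 32851 promoters of this length. Both Esrrb entries held 7, with ratios of 0.266 and 0.318, above 37.7% and 43.9% of promoters. GGGCGG was matched 4 times in Klf4, 2 of the matches sharing a base, and in neither Esrrb entry, and 35.7% of all promoters hold it on either strand. The ESRRB core motif AAGGTCA, present in 4.72% of promoters, and the T-box core motif AGGTGT, in 13.7%, were searched on both strands and matched in none of the 3 sequences.

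Each window had a wide H3K4me3 domain in all 4 libraries. No gene start on GRCm39 was at hand. The widest H3K4me3 region of each window found in all 4 libraries therefore stands in for the promoter. Presence in all 4 libraries and width were thus part of the choice, not results. A region is the union of peaks, from the 4 libraries of a mark, that share 1 bp or more. Of 17 H3K4me3 regions in the windows, 11 (64.7%) were found in all 4 libraries, beside 68.1% of all H3K4me3 regions in the genome. By gene these were 3 of 3 at Klf4, 4 of 7 at Esrrb and 4 of 7 at Tbx3. The other 6 included 5 found in a single library. The map of peaks by library places them around each domain.

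**Figure D1:**
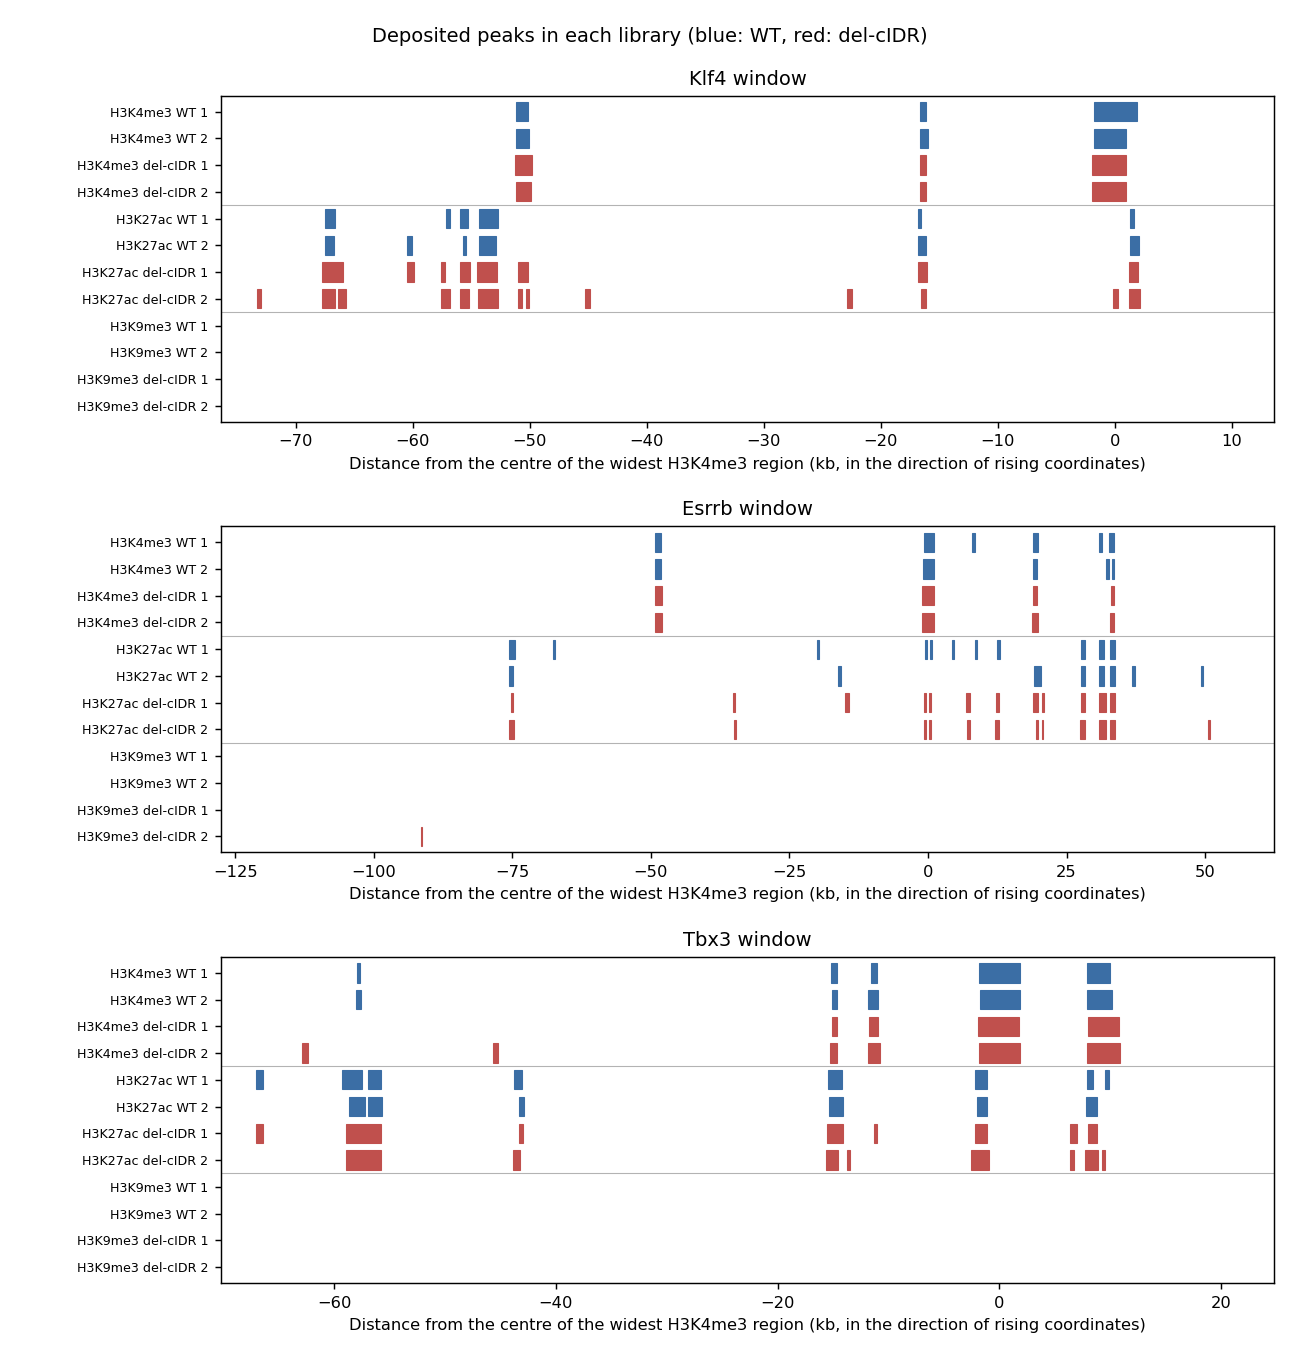
Peaks of the 12 libraries in the 3 windows. The x axis is the distance in kb from the centre of the widest H3K4me3 region, each row is 1 library, and each bar is 1 deposited peak drawn to scale, blue for WT and red for del-cIDR. H3K4me3 bars line up in all 4 libraries at 11 places, H3K27ac bars at 14, and the H3K9me3 rows hold a single bar, in the Esrrb window of del-cIDR replicate 2.

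At Klf4 the widest region was 4:55529458-55533306. Its H3K4me3 peak spanned 2912 and 2923 bp in del-cIDR replicates 1 and 2, and 3679 and 2797 bp in WT replicates 1 and 2. The fold enrichment given by the authors, a ratio of signal to local background within 1 library, was 4.86 and 5.01 in del-cIDR and 4.93 and 5.15 in WT. Both measures overlapped between genotypes, with the longest peak in WT replicate 1. The summit lay at 55531213 in 3 libraries and at 55531214 in del-cIDR replicate 2, so its position differed by 1 bp. In the 3 libraries other than WT replicate 1 the peak ended at 55532380 to 55532386, short of the nearest H3K27ac region shared by all 4 libraries, which began at 55532628. Inside the domain, H3K27ac had 1 weaker peak, 4:55531211-55531667, in del-cIDR replicate 2 alone, with a fold of 2.62.

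The Tbx3 domain, 5:119808293-119812128, was 3836 bp wide as a merged region, beside 3849 bp at Klf4. Its peak spanned 3715 and 3722 bp in del-cIDR and 3701 and 3691 bp in WT, with folds of 3.65 and 3.54 in del-cIDR and 3.41 and 3.69 in WT. Its summit was at 119810963 in 3 libraries and at 119811084 in del-cIDR replicate 2. A second domain lay 6.02 kb further, at 5:119818147-119821094. There the peak spanned 2868 and 2938 bp in both del-cIDR libraries and 2029 and 2267 bp in WT. Del-cIDR was longer in both libraries at that domain, while the summits differed by 1 bp over all 4.

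At Esrrb the widest domain, 12:86516439-86518701, spanned 2176 and 2263 bp in del-cIDR and 1847 and 2016 bp in WT. Its fold was 5.14 and 4.78 in del-cIDR and 6.26 and 6.08 in WT. Peaks were thus longer and of lower fold in both del-cIDR libraries than in either WT library. The summit was at 86517920 in both del-cIDR libraries and at 86517859 in both WT libraries, 61 bp apart. Whether this domain, or another H3K4me3 region of the window, lies at an annotated Esrrb start could not be told with a gene table on GRCm38.p6. The domain may not be the Esrrb promoter, and gaps given for this window are distances to the domain only. A narrower H3K4me3 region, 12:86468292-86469604, lay 46.8 kb towards lower coordinates and had no H3K27ac peak in any library. Its fold was 8.91 and 8.03 in del-cIDR and 8.21 and 7.35 in WT, which overlapped. By −log10 p it was at the 28.5th and 24.5th percentile of shared regions in del-cIDR and at 23.2 and 20.1 in WT, without overlap.

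These domains ranked very differently by fold, by −log10 p and by width. Ranks were taken within each library among the 16093 H3K4me3 regions found in all 4 libraries, so that the same regions were ranked each time. By bases under peaks the Klf4 domain lay at the 99.5th percentile or above, Tbx3 at the 99.96th to 99.97th and Esrrb at the 92.5th to 97.2nd. The domains were chosen as the widest of their windows, so high ranks by bases follow in part from the choice. By fold the same domains lay low, Klf4 at the 5.78th to 7.47th percentile, Tbx3 at the 0.817th to 1.47th and Esrrb at the 5.15th to 15.7th. By −log10 p they ranged from the 63.2nd percentile, at Tbx3 in WT replicate 1, to the 97.0th, at Klf4 in del-cIDR replicate 2.

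**Figure D2:**
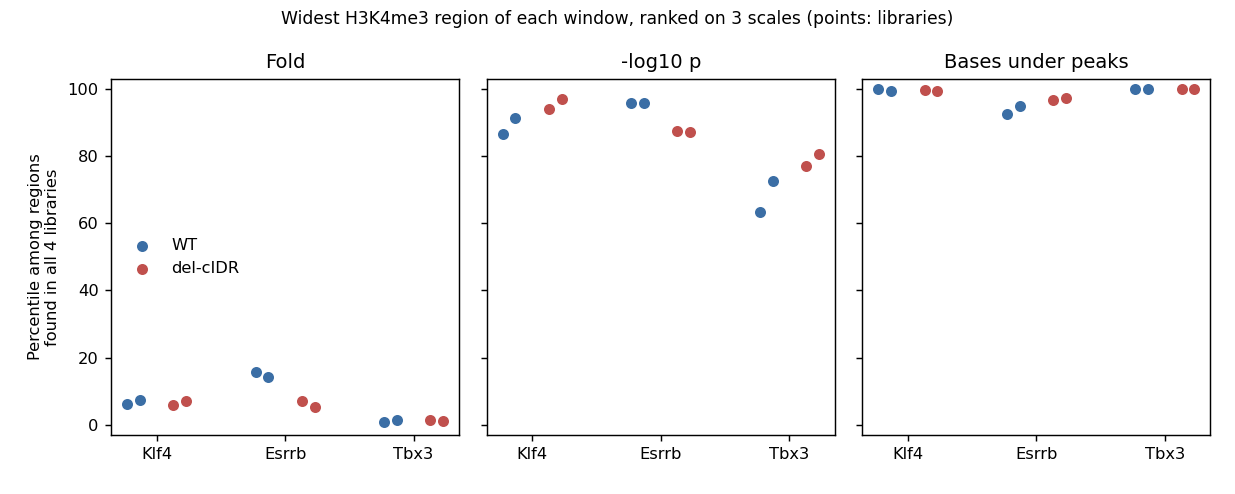
Percentile of the widest H3K4me3 region of each gene on 3 scales (fold, −log10 p and bases under peaks), among regions found in all 4 libraries. Each point is 1 library, blue for WT and red for del-cIDR. Fold percentiles are all at or under 15.7 and those of bases under peaks all at or above 92.5, and at Esrrb the red points lie below the blue ones on the fold and −log10 p scales.

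Between genotypes, the rank of the Esrrb domain differed most clearly from its replicate spread. By −log10 p it stood at the 87.5th and 87.4th percentile in del-cIDR and at the 95.7th and 95.9th in WT, a mean difference of -8.40 points. By fold it stood at 7.01 and 5.15 in del-cIDR and 15.7 and 14.2 in WT (6.08 ± 1.32 against 15.0 ± 1.08, SD, n = 2 each, exact permutation p = 0.333, two-sided). The groups did not overlap on either scale, but 0.333 is the smallest p that 2 libraries against 2 allow. Chromosome 12 as a whole lay in the same direction: the 598 other H3K4me3 regions of that chromosome had a median −log10 p difference of -3.21 points, beside -0.043 over the genome. On chromosome 12, 44.5% of them had both del-cIDR libraries below both WT libraries, against 25.3% of all regions. The part of the chromosome in the Esrrb result was not tested.

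The Klf4 and Tbx3 domains went the other way by −log10 p and did not separate by fold. Klf4 stood at the 94.1st and 97.0th percentile of −log10 p in del-cIDR and at 86.6 and 91.3 in WT. Tbx3 stood at 76.9 and 80.8 in del-cIDR and at 63.2 and 72.6 in WT. By fold the Klf4 means were 6.42 ± 0.905 for del-cIDR and 6.75 ± 1.01 for WT (SD over 2 libraries, exact permutation p = 0.667). Those of Tbx3 were 1.27 ± 0.0747 and 1.14 ± 0.461 (SD, n = 2 each, exact permutation p = 1). Over all 11 shared H3K4me3 regions of the windows, 6 had both del-cIDR libraries above both WT libraries by −log10 p, beside 24.5% of all shared regions. Only 1, the Esrrb domain, had both below, beside 25.3% of all shared regions. By fold the counts were 1 above and 1 below, and each pattern had a background of 19.4%. None of these counts was tested against the genome. Of the 6 regions, 2 lay at Klf4, 1 at Esrrb and 3 at Tbx3, so neighbours were counted together.

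Regions with weaker H3K4me3 were part of the first count. At Klf4 the region 4:55480139-55481593, 47.9 kb from the domain, stood at 45.1 and 44.8 by −log10 p in del-cIDR and at 27.2 and 23.2 in WT. Its peak spanned 1455 and 1284 bp in del-cIDR and 1049 and 1094 bp in WT. At Tbx3 the region 5:119798350-119799424 stood at 26.8 and 27.6 in del-cIDR and at 5.94 and 12.9 in WT. The groups did not overlap in either case. A single H3K4me3 region was found in both libraries of one genotype and neither of the other, 5:119752185-119752599, in WT, with folds of 4.55 and 4.34. It lay inside the H3K27ac region of the Tbx3 window with the highest −log10 p. Such WT calls made up 2.84% of all H3K4me3 regions, and the reverse, 2.08% of the genome's regions, was not found in the windows.

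H3K27ac was spread over more and smaller regions. The windows held 42 H3K27ac regions, of which 14 (33.3%) were found in all 4 libraries, beside 26.7% in the genome. Another 15 were found in a single library. Regions found in all 4 libraries had a median width of 1146 bp and a median fold at the 32.2nd percentile of their lists, whereas those in 1 library had 450 bp and the 2.67th percentile. Of the 42, 27 (64.3%) overlapped no H3K4me3 region, close to the 66.6% of all H3K27ac regions. Of the 14 shared regions 6 (42.9%) did so, beside 37.7% of the shared H3K27ac regions in the genome.

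The Klf4 window had a distal group of H3K27ac regions on the lower-coordinate side, which is downstream of this minus-strand gene. Of these, 4:55476914-55478664, 50.8 kb from the H3K4me3 domain, was covered over 1653 and 1724 bp in del-cIDR and 1573 and 1454 bp in WT. Its fold was 3.15 and 3.13 in del-cIDR and 3.46 and 3.56 in WT. By −log10 p it stood at the 88.3rd to 89.7th percentile in the 4 libraries, and the groups overlapped. By fold it stood at 2.43 and 1.87 in del-cIDR and at 4.80 and 4.52 in WT, lower in both del-cIDR libraries. Next to it, 4:55475430-55476277 had a summit at 55475735 in 3 libraries and at 55475738 in WT replicate 2. By −log10 p that region stood at 78.6 and 84.1 in del-cIDR and at 77.1 and 66.0 in WT, without overlap, while its fold percentiles overlapped.

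The farthest shared Klf4 region, 4:55463594-55465658, lay 63.8 kb from the domain. It was covered over 1869 and 1767 bp in del-cIDR and over 932 and 723 bp in WT. Its −log10 p percentile was 60.6 and 69.3 in del-cIDR and 68.3 in WT replicate 1, but 12.1 in WT replicate 2, so the groups overlapped. Between enhancers and promoter, 4:55514534-55515360 carried H3K27ac and H3K4me3 in all 4 libraries of each mark. There the −log10 p percentile of H3K27ac was 25.7 and 57.2 in del-cIDR and 11.1 and 1.79 in WT, without overlap. At the edge of the H3K4me3 domain, 4:55532628-55533516 had folds of 4.95 and 5.18 in del-cIDR and 5.23 and 4.88 in WT. These overlapped, but its fold percentile was 27.2 and 27.3 in del-cIDR and 41.9 and 30.4 in WT, a mean difference of -8.87 points without overlap (exact permutation p = 0.333), and its −log10 p percentiles overlapped.

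One H3K27ac region of the Klf4 window, 4:55480360-55481335, was found in the 2 del-cIDR libraries and not in WT. Del-cIDR replicate 1 had 1 peak of 917 bp there with a fold of 2.11 and a −log10 q of 7.07. Replicate 2 had 2 peaks, of 360 and 310 bp, the stronger with a fold of 1.92 and a −log10 q of 5.42. It sat inside the weaker H3K4me3 region at 47.9 kb, which all 4 H3K4me3 libraries had. The WT lists hold no H3K27ac peak there, and sites weaker than a q of 0.0500 are in none of these lists.

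At Esrrb the shared H3K27ac regions highest by −log10 p lay 29.7 to 31.7 kb beyond the domain in the direction of transcription. The region 12:86548385-86549656 was covered over 1266 and 1226 bp in del-cIDR and 907 and 833 bp in WT, with folds of 3.61 and 4.27 in del-cIDR and 3.72 and 4.16 in WT. Its −log10 p percentile was 89.9 and 94.7 in del-cIDR and 93.1 and 93.6 in WT, so del-cIDR spanned the WT values. Next to it 12:86550449-86551394, which also carried H3K4me3 in all 4 libraries, stood at 72.8 and 90.0 in del-cIDR and 83.8 and 87.6 in WT. A weaker region at 12:86545083-86545960 ranked between 15.0 and 25.1 by −log10 p, with overlap, and by fold at 0.160 and 0.175 in del-cIDR and 0.108 and 0.071 in WT, without overlap.

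The widest H3K4me3 domain of Esrrb had little H3K27ac. A pair of short regions inside it, 12:86516812-86517330 and 12:86517751-86518228, were found in 3 libraries and were missing from WT replicate 2. Their folds were 2.72 to 3.36. With no H3K27ac region of all 4 libraries in the domain, the planned comparison of its H3K27ac rank could not be made.

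The farthest shared region of the Esrrb window, 12:86441917-86443041, had the largest genotype difference in rank by −log10 p among the 25 shared regions of both marks. It lay 73.4 kb from the domain on the lower-coordinate side and carried no H3K4me3. Its fold was 4.81 and 5.46 in del-cIDR and 5.76 and 6.34 in WT, and its −log10 p was 7.19 and 9.88 against 12.3 and 12.2. By −log10 p it stood at the 10.00th and 20.3rd percentile in del-cIDR and at 56.3 and 59.5 in WT, a mean difference of -42.7 points. By fold it stood at 24.8 and 32.5 against 55.4 and 65.6. On chromosome 12, the 492 other shared H3K27ac regions had a median −log10 p difference of -2.69 points, beside 0.35 over the genome. Both del-cIDR libraries lay below both WT libraries at 29.7% of them, beside 22.2% of all shared H3K27ac regions. By fold the median difference of these chromosome 12 regions was -0.037 points, beside -0.082 over the genome. By that measure 22.2% of them lay below, beside 20.5% of all shared H3K27ac regions.

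In all, 3 H3K27ac regions of the Esrrb window were found in the 2 del-cIDR libraries and not in WT. They were 12:86482360-86482957 with folds of 3.87 and 3.60, 12:86524343-86525159 with 2.95 and 3.02, and 12:86538065-86538555 with 2.54 and 3.26. All were weak, with −log10 q values of 2.12 to 6.20. The regions past the domain lay 5.64 and 19.4 kb from it, among other H3K27ac peaks. None overlapped an H3K4me3 region.

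At Tbx3 the upstream region 5:119750933-119754528 was the widest H3K27ac region of the 3 windows. It was covered by 1 peak of 3169 and 3141 bp in the del-cIDR libraries and by 2 peaks adding up to 2974 and 2742 bp in the WT libraries. The strongest peak had a fold of 5.78 and 5.93 in del-cIDR and 5.36 and 6.20 in WT. Its summit was at 119752330 in 3 libraries and at 119752329 in del-cIDR replicate 2. By −log10 p it stood at the 92.0th to 95.6th percentile in all 4, and the genotypes overlapped. By fold it stood at 44.9 and 41.7 in del-cIDR and at 45.3 and 62.8 in WT, lower in both del-cIDR libraries. It lay 53.8 kb before the H3K4me3 domain.

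Other Tbx3 regions differed in opposite directions or overlapped between genotypes. The region 5:119766344-119767292 lay 41.0 kb before the domain and carried no H3K4me3. Its −log10 p percentile was 2.30 and 6.67 in del-cIDR and 5.94 and 29.1 in WT, and the groups overlapped. Nearer the gene, 5:119794561-119796141 lay 12.2 kb before the domain and carried H3K4me3 in all 4 libraries of that mark. Its folds were 4.42 and 4.48 in del-cIDR and 4.85 and 5.49 in WT. Its −log10 p percentile was 29.8 and 23.7 in del-cIDR and 62.3 and 65.1 in WT, without overlap. Past the domain, 5:119817966-119819131 stood at 61.2 and 72.3 in del-cIDR and at 41.7 and 42.2 in WT, again without overlap, while its fold percentiles overlapped. At the domain itself, 5:119807708-119809243 had folds of 5.47 and 6.07 in del-cIDR and 5.74 and 4.43 in WT, which overlapped. Its fold percentile was 38.3 and 44.3 in del-cIDR and 54.9 and 19.2 in WT. The mean difference was 4.22 points, and WT spanned the del-cIDR values. The region 5:119816600-119817258 was found in the 2 del-cIDR libraries and not in WT, with folds of 3.04 and 2.35.

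**Figure D3:**
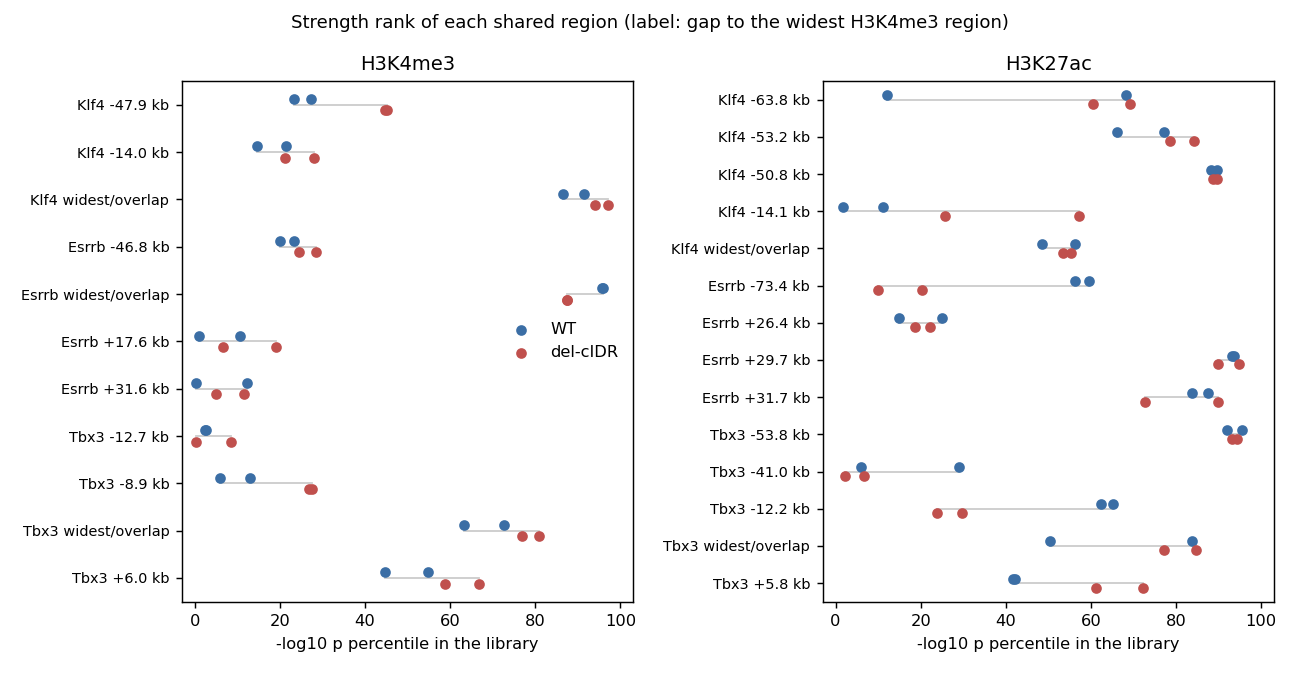
Percentile of −log10 p within each library for the 11 H3K4me3 and 14 H3K27ac regions of the windows found in all 4 libraries. Rows are regions, named by gene and by the gap in kb to the widest H3K4me3 region, and points are libraries, blue for WT and red for del-cIDR. The longest separation between genotypes is at Esrrb -73.4 kb, where WT libraries lie at 56.3 and 59.5 and del-cIDR libraries at 10.00 and 20.3.

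Counted over the 14 shared H3K27ac regions, 3 had both del-cIDR libraries above both WT libraries by −log10 p and 2 had both below, beside 23.3% and 22.2% of all shared H3K27ac regions. By fold 2 were above and 5 below, with a background of 19.8% and 20.5%. Of the 42 regions of the windows, 5 (11.9%) were found in the 2 del-cIDR libraries and not in WT, beside 6.42% of all H3K27ac regions. The reverse was found 0 times in the windows and for 1.83% of all regions. These counts were not tested against the genome. With lists cut to equal length 2 of the 5 remained, those at 4:55480360-55481335 and 12:86524343-86525159, and the H3K27ac lists of del-cIDR were longer, at 28853 and 33460 peaks against 25804 and 23407.

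Summed over a window, H3K27ac covered more bases in both del-cIDR libraries than in either WT library at all 3 genes. At Klf4, peaks covered 7788 and 8800 bp in del-cIDR and 4189 and 4357 bp in WT (8294 ± 716 against 4273 ± 119 bp, SD, n = 2 each, 1.94-fold, exact permutation p = 0.333, two-sided). Esrrb had 7824 and 7372 bp against 6718 and 5843 bp, 1.21-fold, and Tbx3 had 8461 and 8612 bp against 7440 and 6304 bp, 1.24-fold. At both genes the exact permutation p was 0.333. On average the del-cIDR lists also covered more of the rest of each chromosome, 1.31-fold on chromosome 4, 1.13-fold on 12 and 1.35-fold on 5. On chromosome 12 the genotypes overlapped, at 707 and 792 kb in del-cIDR and 726 and 602 kb in WT. Divided by the rest of its chromosome, the Tbx3 window was lower in del-cIDR, by -56.2 bp per 100 kb under peaks elsewhere, and the Klf4 window was higher, by 183 bp. At Esrrb the genotypes then overlapped, with a share of the window 6.78 and 5.70 times that of the rest of the chromosome in del-cIDR and 5.67 and 5.95 times in WT. With lists cut to equal length the differences in bases were 3312.5 bp at Klf4, 841 bp at Esrrb and 836 bp at Tbx3, against 4021, 1317.5 and 1664.5 bp with whole lists.

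**Figure D4:**
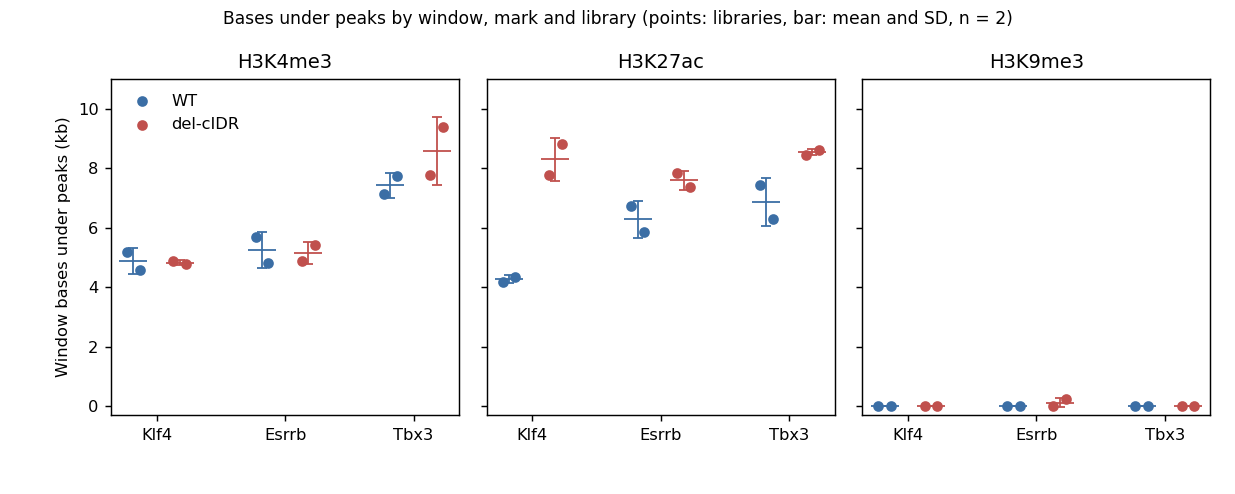
Bases of each window under peaks, in kb, by mark and gene. Points are libraries, horizontal bars the mean and error bars the SD of 2 libraries, blue for WT and red for del-cIDR. For H3K27ac all red points lie above the blue points of the same gene, with the widest gap at Klf4, and for H3K9me3 all points but 1 lie at 0.

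The Klf4 excess lay at sites with and without H3K4me3. Regions of that window off H3K4me3 held 5308 and 6341 bp under H3K27ac peaks in del-cIDR and 3550 and 2908 bp in WT. Those overlapping an H3K4me3 region of any library held 2480 and 2459 bp against 639 and 1449 bp. They included 4:55532628-55533516, with 781 and 880 bp in del-cIDR and 345 and 742 bp in WT. That region met H3K4me3 only through the peak of WT replicate 1. Off H3K4me3 at Esrrb the values were 4149 and 4241 bp against 4172 and 3032 bp, and the groups overlapped.

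H3K4me3 coverage was nearly level at Klf4 and Esrrb. Klf4 had 4875 and 4774 bp under peaks in del-cIDR and 5197 and 4581 bp in WT, and Esrrb had 4885 and 5414 bp against 5687 and 4812 bp. Both overlapped between genotypes, with an exact permutation p of 1. Tbx3 had 7758 and 9389 bp in del-cIDR and 7131 and 7726 bp in WT (exact permutation p = 0.333). H3K4me3 peaks covered 5.09% to 5.77% of the Klf4 window, against 0.878% to 0.909% of the rest of chromosome 4 between its first and last peak. The Tbx3 window was covered at 7.51% to 9.88% and the Esrrb window at 2.53% to 2.99%, beside 0.831% to 0.869% of chromosome 5 and 0.614% to 0.667% of chromosome 12.

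H3K9me3 was nearly absent from the lists in these windows. No library had an H3K9me3 peak in the Klf4 or Tbx3 window, so no region there was shared by all 4 libraries or found in the 2 libraries of a single genotype. Over the genome 23.4% of H3K9me3 regions were in all 4 libraries, 4.51% in del-cIDR alone and 0.955% in WT alone. The Esrrb window had 1 peak, at 12:86426088-86426313 in del-cIDR replicate 2, with a fold of 3.53 and a −log10 q of 1.65. The rest of chromosomes 4, 5 and 12 was covered at 0.376% to 0.458% in WT replicate 1 and at 0.972% to 1.41% in the other 3 libraries, so the list of WT replicate 1 is the one least able to show a weak site.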

How the data were processed

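Peak lists of 12 libraries were analysed. Per the submitters' processing notes, fastp, BWA, SAMtools, Picard, MACS2 and featureCounts were used on GRCm39. For versions, settings and any control library: not given in the sources used here. The authors deposited 1 list per library, narrow peaks for H3K4me3 and H3K27ac and broad peaks for H3K9me3, with a score, a fold enrichment (a ratio to local background), and the −log10 p and −log10 q of each peak. These values are the authors' own and were used within a library, as values or ranks. The deposited lists hold no read counts, so depth is unknown and no counting interval could be given. A deeper library gives longer lists and larger −log10 p.

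Peaks on chromosomes 1 to 19, X and Y were kept and merged into regions per mark by an overlap of at least 1 bp with Python 3.11.15 and pandas 2.3.3, and the calling step was tested on simulated lists. Groups and replicate numbers came from the sample titles. Genotypes were compared with exact permutation tests over libraries, two-sided, in 9 comparisons of bases and 5 of fold ranks at the widest H3K4me3 region. The named items are the windows, the widest H3K4me3 region of each, the H3K27ac regions found in all 4 libraries, regions found in 1 genotype's libraries and the strongest H3K9me3 peak. Regions beyond that, mainly weaker H3K4me3 regions, were named after their values were seen. The members and lists were chosen with earlier results of these data known. Alternatives were a −log10 q of at least 5, lists cut to equal length, 50% cover, merging within 1000 bp, −log10 p in place of fold, division by the rest of the chromosome, pairing by replicate number and leaving out each library. A list of other naive genes was not used, because the gene table at hand was on GRCm38.p6. No sequence was read at the peaks.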

Additional observations from a re-analysis of the deposited data

How the results depend on the processing

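Over all alternatives 14 values reversed, 18 others moved beyond the limits set, and 147 did neither, which for a signed difference says only that its direction was kept. With a −log10 q of at least 5, H3K4me3 bases at Esrrb went from -100.0 bp (del-cIDR minus WT) to 1262.5 bp, the H3K9me3 difference there from 113 to 0 bp, H3K4me3 regions in WT alone from 1 to 0, H3K27ac regions in del-cIDR alone from 5 to 2 (of the 5, 4:55480360-55481335 alone passed), and shared H3K27ac regions from 14 to 9. At equal list length these were 547.5 bp, 0 bp and, for H3K27ac in del-cIDR alone, 2 regions. Merging within 1000 bp also gave 2, 4:55480360-55481335 and 12:86482360-86482957, and 50% cover left 7 shared H3K27ac regions. Divided by the rest of the chromosome, H3K4me3 bases differed by 0.443 at Klf4 and 34.8 at Esrrb, and H3K27ac at Tbx3 by -56.2, in bp per 100 kb under peaks elsewhere. With −log10 p in place of fold the rank difference at the Klf4 domain went from -0.339 to 6.56 points for H3K4me3 and from -8.87 to 1.97 points for H3K27ac. The cause was not tested.

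Leaving out a library asks for agreement of fewer libraries, so more regions can qualify. Regions in del-cIDR alone numbered 6 to 13 for H3K27ac, 0 to 2 for H3K4me3 and 0 to 1 for H3K9me3, and those in WT alone 0 to 4 for H3K27ac and 1 to 3 for H3K4me3. The H3K27ac count was 13 without del-cIDR replicate 1, 8 without del-cIDR replicate 2 and 9 without WT replicate 1. H3K4me3 bases differed by -372.5 to 243.5 bp at Klf4, reversed without WT replicate 1, and by -537.5 to 337.5 bp at Esrrb, reversed without WT replicate 1 and, at 164.5 bp, without del-cIDR replicate 1, by 329.5 (without del-cIDR replicate 2) to 1960.5 bp (without del-cIDR replicate 1) at Tbx3, and H3K9me3 bases at Esrrb by 0 to 226 bp. Fold ranks differed by -1.49 to 0.757 points at Klf4 (0.757 without del-cIDR replicate 1, 0.130 without WT replicate 2) and -0.278 to 0.494 at Tbx3 (-0.278 without WT replicate 1) for H3K4me3, and by -15.7 (without WT replicate 2) to -3.58 (without WT replicate 1) at Klf4 and -13.7 to 22.7 at Tbx3 for H3K27ac, where Tbx3 reversed without WT replicate 2 and was highest without WT replicate 1. H3K27ac bases stayed higher in del-cIDR, by 3515 to 4527 bp at Klf4, 880 to 1755 bp at Esrrb and 1096.5 to 2232.5 bp at Tbx3.

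Replicate numbers are shared by the genotypes, but nothing in the labels makes them pairs. Deviations of same-numbered libraries correlated at -0.00036 for H3K4me3, 0.013 for H3K27ac and 0.11 for H3K9me3 over regions. With the replicate block the mean H3K27ac difference at Klf4 is the same 4021 bp, with an exact sign-flip p of 0.5, the smallest that 2 pairs allow, and it moved no result past a threshold. The unknown depth limits every absence reported here to the authors' list limits.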
